A study of Mus musculus with 2 samples.

Results

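The respiratory chain genes examined here are the 111 rows of a single-cell count matrix whose symbols start with Nduf, Uqcr, Atp5, Sdha to Sdhd, Cox4 to Cox8, mt-Nd, mt-Co, mt-Cytb or mt-Atp, with symbols marked -ps left out, out of 31253 rows in all. They comprise 98 nuclear rows and the 13 genes of the mitochondrial genome that encode proteins. The rule used names only and no measured value. By role, the nuclear rows held 36 subunits of complex I, 8 assembly factors of complex I (Ndufaf genes), 4 subunits and 4 assembly factors of complex II, 8 genes of complex III, 20 of complex IV and 18 of complex V, and 2 rows carried the symbol Atp5o, one of them with no counts. The cells came from duodenal crypts, the pits of the upper small intestine that hold its stem cells, of wild-type mice. The study set a group labelled NT beside a group labelled ES, letters that no label expands, and its title speaks of chronic stress and stem cell aging. Strain, age and sex are not given in the sources used here, and crypts of 5 animals were pooled in each group, so each group is 1 library with no replicate.

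The respiratory chain sits in the inner mitochondrial membrane. Complexes I and II pass electrons from NADH and succinate to ubiquinone, complex III passes them on to cytochrome c, complex IV passes them to oxygen, and complex V uses the resulting proton gradient to make ATP. Complex II is built from nuclear genes alone, whereas the other complexes join nuclear subunits with a few encoded in mitochondrial DNA, which is transcribed as long strands that are then cut into single messages. In the small intestine, stem cells at the crypt base divide and give rise to cycling progenitors, to absorptive enterocytes, and to secretory goblet, Paneth, enteroendocrine and tuft cells.

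Barcodes end in 1 or 2, and these endings were taken to mark the 2 libraries, although which ending belongs to NT and which to ES is unlabelled. Every ratio between libraries below is therefore library 2 to library 1 and gives no direction between the groups. The matrix held 12756 barcodes, and 7784 of them were kept: those with 500 genes or more and no more than 25% mitochondrial reads, counted as UMIs (unique molecular identifiers, tags that stand for single RNA molecules). The kept cells numbered 4057 in library 1 and 3727 in library 2, with medians of 10854 and 11800 UMIs. The nuclear members took 3.86% and 3.78% of all UMIs in these cells, and the mitochondrial members took 10.4% and 9.68%. The barcodes hold 27 letters, which is not the barcode length of the kit that the labels name, and 40 barcodes occur with both numbers, 13 of them among kept cells.

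Cells were put into classes by the UMIs of marker genes that include no member, so a class is a range of marker levels and not a type. The stem class (Lgr5, Ascl2, Smoc2, Axin2, Rgmb) held 335 and 272 cells in libraries 1 and 2, the cycling class 860 and 563, and the enterocyte class (Alpi, Apoa1, Fabp1 and others) 582 and 643. The goblet class held 449 and 577 cells, the Paneth class 180 and 165, the enteroendocrine class 69 and 85, the tuft class 22 and 56, and the lymphocyte class 281 and 234. A further 244 and 183 cells passed both the stem and the cycling limit, 997 and 895 passed none, and 38 and 54 passed several and were left out. Many cells lay near a limit: in library 1, 52 of the stem class were within a factor of 1.25 above it and 163 cells of other classes were as close below it. Markers of other classes were seen everywhere at a low level. The 10 enterocyte markers summed to 13578 and 14330 counts per 1000000 UMIs (CPM) in the enterocyte class, to 616 and 869 CPM in the stem class, and to 534 and 546 CPM in the lymphocyte class, which should lack them. At levels of that kind, free RNA and a member's own expression cannot be told apart.

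The summed nuclear members were highest in the enterocyte class and lowest in the Paneth class in both libraries. In the stem class they stood at 30551 CPM in library 1 and 30897 CPM in library 2. In the cycling class they stood at 41273 and 40421 CPM, and in the enterocyte class at 48780 and 47509 CPM. The goblet class had 31974 and 27307 CPM, the enteroendocrine class 25390 and 19419 CPM, the tuft class 25324 and 26136 CPM, and the lymphocyte class 18718 and 17627 CPM. The Paneth class had 12702 and 13247 CPM. All intervals in these sums cover counting error only, and the widest relative ones belong to the tuft class, which holds the fewest UMIs. The order of stem, cycling and enterocyte was the same in both libraries, while goblet stood above stem in library 1 and below it in library 2.

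The Paneth value depended on what the members were divided by. In that class 61.4% and 63.9% of all UMIs came from class markers and defensins, the antimicrobial peptides that Paneth cells secrete, against 0.858% and 1.0% in the stem class. Counted per 1000000 UMIs outside mitochondrial genes, class markers and defensins, the nuclear members reached 34850 and 39008 in the Paneth class and 34423 and 34891 in the stem class. On that scale the Paneth class was no longer below the stem class, and the lymphocyte class was, at 20870 and 19583.

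**Figure D1:**
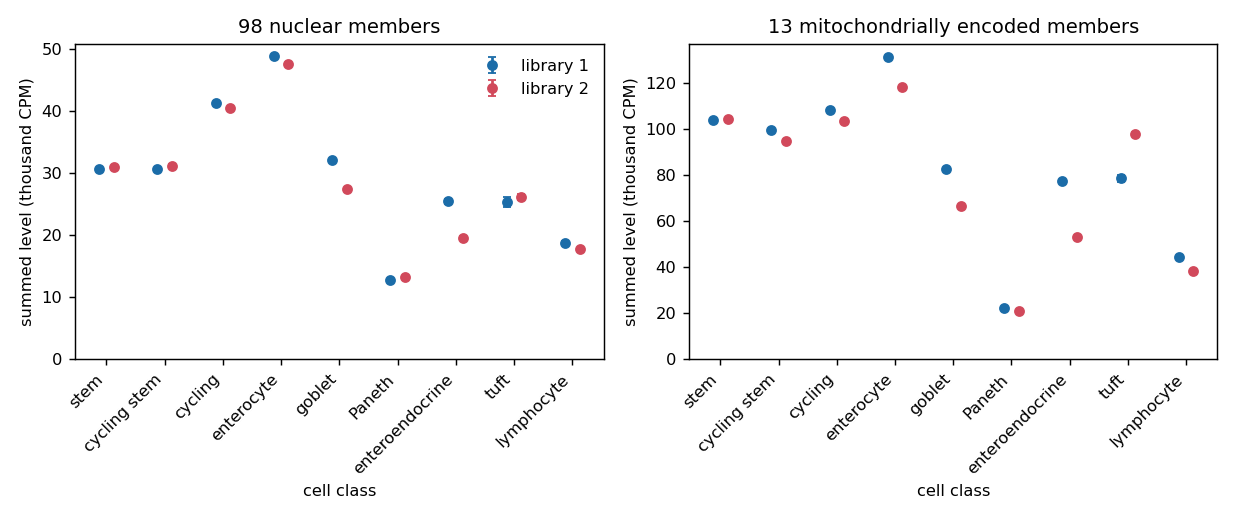
Summed level of the 98 nuclear members (left) and of the 13 mitochondrially encoded members (right) in 9 cell classes, in units of 1000 CPM, for library 1 and library 2, with error bars for the exact 95% Poisson interval, which are mostly smaller than the points. Both panels peak in the enterocyte class and are lowest in the Paneth class, and the classes between them fall in different orders in the 2 panels.

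Among cells under the 25% limit on mitochondrial UMIs, the mitochondrial sum differed less between the stem and enterocyte classes than the nuclear sum. Without that limit the order turned in library 1, at 1.57 for the mitochondrial and 1.48 for the nuclear sum, and held in library 2, at 1.30 and 1.46. With the limit, the mitochondrial sum was 103913 and 104428 CPM in the stem class, 108003 and 103479 CPM in the cycling class, and 131108 and 118066 CPM in the enterocyte class. The enterocyte to stem ratio was thus 1.26 and 1.13 for the mitochondrial sum, against 1.60 and 1.54 for the nuclear sum. There were 0.294 and 0.296 nuclear UMIs for each mitochondrial UMI in the stem class, 0.382 and 0.391 in the cycling class, and 0.372 and 0.402 in the enterocyte class. The Paneth class had 0.577 and 0.632, a ratio within the same cells that does not depend on the defensin counts. For complex IV alone, nuclear UMIs per mt-Co UMI went from 0.416 and 0.421 in the stem class to 0.540 and 0.562 in the enterocyte class and 1.39 and 1.68 in the Paneth class.

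Single members were compared between the enterocyte and the stem class within each library. A member counted as higher or lower when its ratio reached 1.5 in the same direction in both libraries, each with an exact 95% interval that left out 1, among genes with at least 100 UMIs over both classes in each library. Of 90 measured nuclear members, 38 were higher and 1 was lower. Of all 8425 genes measured, 18.2% were higher and 33.3% lower by the same rule. The median nuclear member had a ratio of 1.5 in library 1 and 1.46 in library 2, whereas the median of all measured genes was 0.819 and 0.841. Ratios of 79 nuclear members were above 1 in both libraries.

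Complex I, the entry point for NADH, had 14 of its 36 subunits higher, with a median of 1.49 and 1.5. The accessory subunit Ndufv3 stood at 204 and 197 CPM in the stem class and at 449 and 432 CPM in the enterocyte class, a ratio of 2.21 (95% interval 2.05 to 2.38) in library 1 and 2.19 (2.02 to 2.39) in library 2. Ndufb10, of the membrane arm, went from 166 and 158 CPM to 365 and 339 CPM. Among the core subunits that carry the flavin and iron-sulfur centres, Ndufs1 had ratios of 1.48 and 1.52 and Ndufv1 of 1.30 and 1.24, neither of which passed. Ndufb8, a membrane-arm subunit often used as a gauge of assembled complex I, passed with 1.64 and 1.60. Ndufa7 was the member nearest to no difference, at 296 and 275 CPM in the stem class and 301 and 273 CPM in the enterocyte class.

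Complex II, succinate dehydrogenase, had 3 of 4 subunits higher. Sdhb, the iron-sulfur subunit, went from 269 CPM in the stem class of both libraries to 569 and 577 CPM in the enterocyte class, a ratio of 2.12 (1.98 to 2.26) and 2.14 (1.99 to 2.30). The membrane anchors Sdhc and Sdhd had ratios of 1.74 and 1.63, and of 1.98 in both libraries. Sdha, the flavoprotein that holds the active site, had ratios of 1.30 (1.23 to 1.37) and 1.25 (1.18 to 1.33) and did not pass. The intervals of Sdha and Sdhb did not overlap in either library, so subunits of one complex differed in ratio by more than counting error.

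Complex III had 5 of 8 genes higher. Uqcrfs1, the Rieske iron-sulfur protein, went from 292 and 298 CPM to 666 and 629 CPM, a ratio of 2.28 (2.14 to 2.43) and 2.11 (1.97 to 2.26). The core protein Uqcrc1 had ratios of 1.75 and 1.77, and the small subunit Uqcrq 1.72 and 1.59. Complex V had 9 of 17 measured genes higher, with a median of 1.57 and 1.51. The catalytic subunits Atp5a1 and Atp5b, at ratios of 1.39 and 1.37 and of 1.36 and 1.28, did not pass, and neither did Atp5e at 1.38 and 1.32.

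Atp5g1, Atp5g2 and Atp5g3 encode the same mature ring subunit of complex V from separate genes. Atp5g3 went from 1494 and 1524 CPM in the stem class to 3025 and 2946 CPM in the enterocyte class, a ratio of 2.03 and 1.93. Atp5g1 had ratios of 1.60 and 1.66. Atp5g2 went the other way, from 22.3 and 25 CPM to 16.3 and 16.6 CPM, with ratios of 0.730 (0.554 to 0.965) and 0.662 (0.503 to 0.876), of which that of library 1 fell short of the 1.5-fold rule. The genes for one protein thus differed in direction between these classes.

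**Figure D2:**
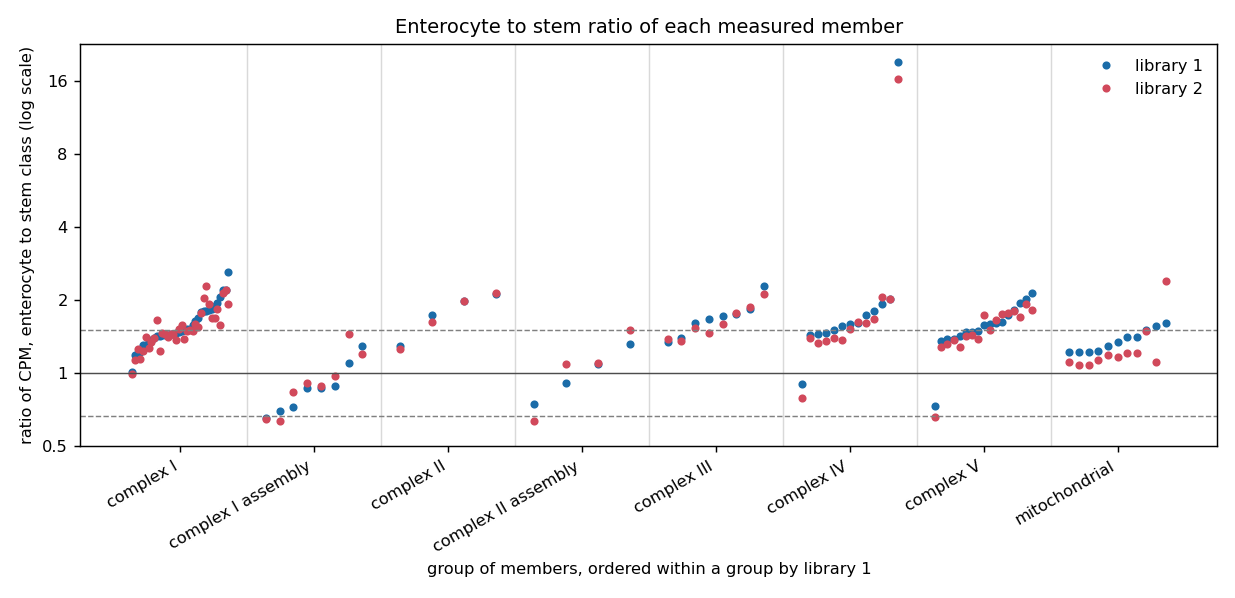
Enterocyte to stem ratio of CPM for each measured member (log scale), grouped by complex or role, with 1 point per library and members ordered within a group by library 1; dashed lines mark 1.5 and its inverse. Most subunits lie between 1 and 2.3, the assembly factors straddle 1, and Cox7a1 stands alone at 19.2 and 16.4.

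Complex IV had 7 of 13 measured genes higher, and it held the member with the highest ratio. Cox5a and Cox5b, subunits found in every tissue, had ratios of 1.93 and 2.06, and of 1.61 and 1.63. Cox6a1 passed with 1.60 and 1.52, Cox6b1 with 1.74 and 1.60 and Cox7b with 1.81 and 1.68, while Cox4i1 at 1.44 and 1.40, Cox6c at 1.5 and 1.39 and Cox8a at 1.46 and 1.36 did not. Ndufa4, a subunit now placed in complex IV, had 1.56 and 1.38 and did not pass. The alternative isoforms were almost unseen. Cox4i2 had at most 1 UMI in any of the stem or enterocyte sums, Cox6a2 at most 13, Ndufa4l2 had none there, and Cox7b2, Cox8b and Cox8c had none in any kept cell. Cox6b2, the testis isoform, was low but present in the stem class, at 16.6 and 14.7 CPM against 2.07 and 2.84 CPM in the enterocyte class, under the minimum count for a call there. In the cycling class, where it was measured, Cox6b2 was the only nuclear member lower than in the stem class, with ratios of 0.551 and 0.502.

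The Cox7a family was the exception to this picture of quiet alternative isoforms. Cox7a1 encodes the isoform best known from heart and skeletal muscle, Cox7a2 the isoform of most tissues, and Cox7a2l a related protein that links complexes III and IV into supercomplexes. Cox7a1 stood at 19.9 CPM (95% interval 15.9 to 24.7) and 22.2 CPM (17.3 to 28.0) in the stem class and at 383 CPM (369 to 397) and 365 CPM (353 to 377) in the enterocyte class. The ratio was 19.2 (15.5 to 24.2) in library 1 and 16.4 (13 to 21.1) in library 2. It rested on 83 and 71 UMIs in the stem class and 2963 and 3591 in the enterocyte class. The stem level was no higher than that of the lymphocyte class, at 30.9 CPM in both libraries, and free RNA cannot be told apart from expression at that level. Among other classes Cox7a1 had 62.4 and 68.7 CPM in cycling cells, 66.7 and 66.3 in goblet, 54.3 and 44.7 in enteroendocrine and 33.5 and 44.2 in Paneth.

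The other genes of the family behaved differently. Cox7a2 went from 355 and 345 CPM in the stem class to 719 and 699 CPM in the enterocyte class, a ratio of 2.03 in both libraries. Cox7a2l went from 372 and 367 CPM to 334 and 290 CPM, with ratios of 0.898 (0.843 to 0.957) and 0.791 (0.739 to 0.847) that did not reach the rule. Its intervals lay below 1 in both libraries, while those of Cox7a1 and Cox7a2 lay above 1. Neither Cox7a1 nor Cox7a2 shares a stretch of 60 bases with the transcript of another gene in the last 500 bases of its own transcript, nor does Cox7a2l.

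The starts of Cox7a1, Cox7a2 and Sdhb are shown because these genes had the highest ratio, the matching common isoform, and a complex II subunit whose window holds both an NRF1 and an ETS match. Each window runs from 250 bases before to 50 bases after the gene's start in RefSeq (GRCm38.p6), 5′ to 3′ on the gene's strand: Cox7a1 at chr7:30183921-30184220 on the plus strand, Cox7a2 at chr9:79759804-79760103 on the minus strand, and Sdhb at chr4:140961021-140961320 on the plus strand. Capitals mark an NRF1 or an ETS match, which occur only in the window of Sdhb among these 3, and GC box letters, present in the windows of Cox7a2 and Sdhb, are left in lower case.
Cox7a1: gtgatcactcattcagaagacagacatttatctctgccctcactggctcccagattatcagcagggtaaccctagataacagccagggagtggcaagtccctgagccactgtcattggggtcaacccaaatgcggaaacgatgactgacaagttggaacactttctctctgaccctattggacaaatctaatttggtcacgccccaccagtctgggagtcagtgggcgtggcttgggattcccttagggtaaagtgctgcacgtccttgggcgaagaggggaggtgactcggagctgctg
Cox7a2: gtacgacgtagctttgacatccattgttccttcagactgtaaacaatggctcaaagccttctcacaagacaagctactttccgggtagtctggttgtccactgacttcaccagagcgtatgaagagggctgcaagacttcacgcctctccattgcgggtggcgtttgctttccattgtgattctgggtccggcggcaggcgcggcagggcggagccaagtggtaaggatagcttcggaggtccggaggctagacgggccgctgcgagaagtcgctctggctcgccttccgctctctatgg
Sdhb: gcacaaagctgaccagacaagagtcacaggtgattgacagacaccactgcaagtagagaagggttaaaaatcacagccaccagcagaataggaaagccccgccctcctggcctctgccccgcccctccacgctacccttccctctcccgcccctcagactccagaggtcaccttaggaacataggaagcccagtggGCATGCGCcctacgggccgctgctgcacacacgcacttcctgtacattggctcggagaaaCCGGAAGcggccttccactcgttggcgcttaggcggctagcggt
In Sdhb the NRF1 letters GCATGCGC begin 54 bases before the start and the ETS letters CCGGAAG 7 bases after it. Of the 98 nuclear members, 80 had a window. Searched on both strands, the NRF1 letters GCGCATGC or GCATGCGC were in 15% of the 80 windows, against 3.61% of all 17492 windows of protein-coding genes and 6.41% of those measured in the stem class. The ETS letters CCGGAAG were in 26.3% of the members' windows, against 11.9% of all and 21.7% of measured coding genes. The YY1 letters AAGATGGC were in 12.5%, against 3.22% and 5.84%, and the ERR letters AAGGTCA were in 10%, against 4.08% and 2.90%. The GC box letters GGGCGG were in 48.8% of the members' windows, near the 46.3% of all coding genes and below the 67.9% of measured ones. The HNF4 letters CAAAGTCCA were in none of the members' windows, against 0.417% of all and 0.345% of measured coding genes. They are so rare that their absence from 80 windows says little. Among the members higher in the enterocyte class that had a window, 6 of 34 held the NRF1 letters, against 6 of 43 measured members that did not pass, 9 against 12 held the ETS letters, and 13 against 24 held the GC box letters. A match is a match of letters only.

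Cells were also ordered by their enterocyte marker share alone, leaving out cells past the limit of another differentiated class. Between cells with under 10 and cells with 60 to 100 enterocyte marker UMIs per 10000, the summed nuclear members went from 34200 to 50560 CPM in library 1 and from 33613 to 49664 CPM in library 2. At 200 and over they were lower again, at 45706 and 44075 CPM. Cox7a1 did not turn back: it stood at 27.1 and 32.3 CPM in the lowest range, at 313 and 306 CPM in the range of 60 to 100, and at 543 and 488 CPM in the highest. Cox7a2 followed the nuclear sum, with 412 CPM in the lowest range of both libraries, 744 and 727 CPM in the range of 60 to 100 and 678 and 668 CPM in the highest. Cox7a2l had its lowest values, 229 and 203 CPM, in the highest range.

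**Figure D3:**
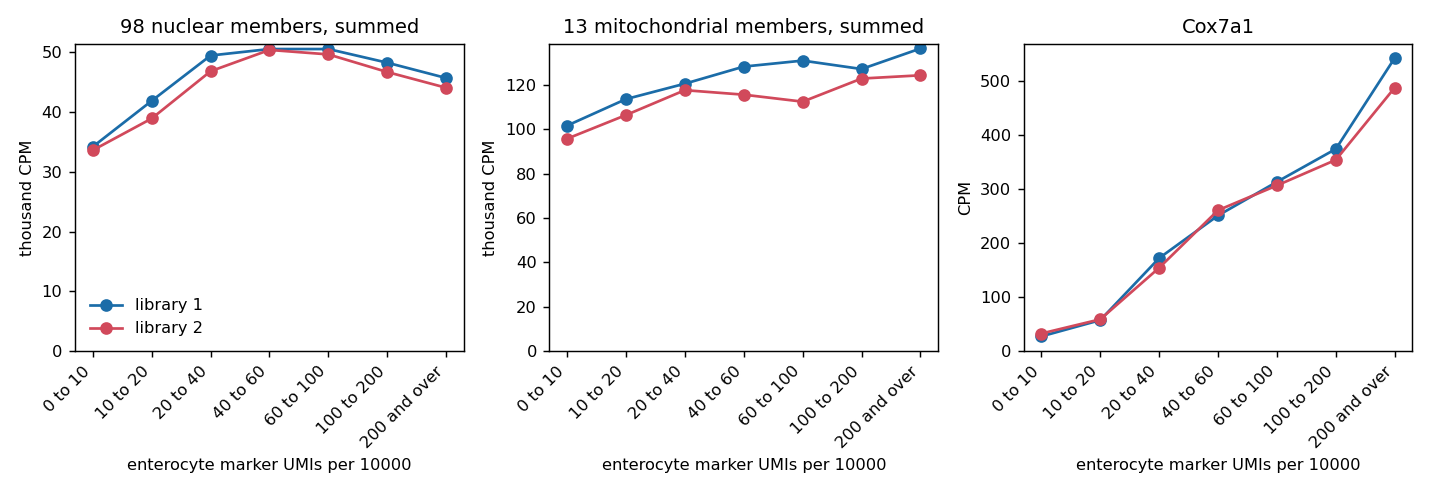
Summed nuclear members (left), summed mitochondrial members (middle), both in units of 1000 CPM, and Cox7a1 in CPM (right), in cells grouped by enterocyte marker UMIs per 10000 UMIs outside mitochondrial genes, for each library. The nuclear sum levels off at 40 to 60 and is lower from 100 on, while Cox7a1 reaches its highest value, 543 and 488 CPM, in the last range.

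The Ndufaf genes had lower ratios than most complex I subunits. Of the 8 Ndufaf genes, which help to build complex I, 0 were higher in the enterocyte class and Ndufaf6 was lower, from 42.9 and 40.7 CPM to 28.1 and 26.2 CPM, with ratios of 0.653 (0.534 to 0.801) and 0.645 (0.520 to 0.802). Their median was 0.868 and 0.897, and 6 of 8 were below 1 in both libraries. The median of all measured genes was slightly lower still, at 0.819 and 0.841, with 18.2% of genes higher and 33.3% lower. The 4 Sdhaf genes, which load cofactors into complex II, had medians of 0.998 and 1.10 with 0 past the rule. Of 23 measured assembly factors whose names fall outside the rule, 5 were higher, among them the complex IV copper chaperone Cox17 (1.58 and 1.84), and 2 were lower, among them Acad9 (0.552 and 0.553), a complex I assembly factor. The 5 of 23 higher are near the 18.2% of all measured genes, and the ratios of Cox17 stood above those of the complex IV subunit Cox4i1.

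Genes around the chain differed by list. Of 8 electron carriers and chain subunits outside the rule, 5 were higher and 0 lower, with cytochrome c, Cycs, at 2.87 and 2.79. Of 19 genes of pyruvate entry and the tricarboxylic acid cycle, which supplies the chain, 8 were higher and 1 lower: malate dehydrogenase Mdh2 had 4.49 and 3.83 and isocitrate dehydrogenase Idh2 0.626 and 0.569. Of 16 measured glycolysis genes, 11 were higher and 1 lower, with Pfkp at 10.8 and 10.4 and the hexokinase Hk2 at 0.0595 and 0.198. Of 18 measured genes for mitochondrial DNA upkeep, transcription and translation, 0 were higher and 8 lower. Tfam, which packs mitochondrial DNA and starts its transcription, went from 235 and 223 CPM to 83.3 and 78.1 CPM, with ratios of 0.355 and 0.351, and the helicase Twnk had 0.355 and 0.276. Of 12 transcriptional regulators, 3 were higher and 7 lower. The coactivator Ppargc1a had 5.75 and 3.62 and its partner Esrra 2.21 and 2.51, while Myc had 0.0429 and 0.0431 and Esrrg 0.149 and 0.138. Of all measured genes 18.2% were higher and 33.3% lower, and the counts of each list are to be read against those shares. The 3 of 12 regulators higher are near the first share, and the 8 of 18 and 7 of 12 lower stand beside the second.

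In the cycling class, 14 of 91 measured nuclear members were higher than in the stem class and 1 was lower, against 7.41% and 7.58% of all 8695 genes measured. The median was 1.34 and 1.32, and 86 members were above 1 in both libraries. Cox7a1 had the highest ratios, 3.13 and 3.10. Among those that passed were also the complex I accessory subunits Ndufa11 (2.15 and 1.66) and Ndufa5 (1.67 and 1.91). Of 10 measured mitochondrial members 0 passed, with medians of 1.07 and 1.01. Cells that passed both the stem and the cycling limit had medians of 1.0 and 1.01 against the stem class over 89 nuclear members, and 0 members passed, where 4.48% of all genes did.

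In the goblet class, 1 of 90 nuclear members was higher than in the stem class and 3 were lower, against 12.8% and 15.9% of all genes. The higher one was Cox7a1 (3.35 and 2.99), and the lower ones were Ndufaf6 (0.576 and 0.496), Sdha (0.665 and 0.577) and Sdhaf1 (0.569 and 0.534), the factor that supports the iron-sulfur subunit of complex II. In the enteroendocrine class, of 85 nuclear members Cox7a1 was higher (2.73 and 2.01) and Ndufaf6 and Ndufv1 were lower, the latter at 0.635 and 0.386. Of all genes there, 15.2% were higher and 13% lower. The nuclear medians were 0.83 and 0.6335, against 1.01 in both libraries for all genes, and 69 members were below 1 in both libraries. In the lymphocyte class, 50 of 84 nuclear and 10 of 10 mitochondrial members were lower and 0 higher, where 26.9% of genes were lower and 20.3% higher. The median nuclear ratio there was 0.621 and 0.580 and the median mitochondrial ratio 0.417 and 0.363.

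In the Paneth class, 80 of 85 nuclear members and 10 of 10 mitochondrial members were lower, but so were 87.6% of all genes measured. The median nuclear ratio was 0.429 and 0.451, above the median of all genes, 0.366 and 0.334, and the median mitochondrial ratio was 0.249 and 0.211. Cox7a1 alone was higher (1.68 and 1.99), where 2.08% of genes were. Its Paneth level was not far above that of the lymphocyte class, so free RNA and expression cannot be told apart. Among the mitochondrial rows with many counts, mt-Co1, the catalytic subunit of complex IV, had the lowest Paneth to stem ratio. It took 20.8% and 20.7% of the mitochondrial UMIs in the stem class and 12.2% and 11.1% in the Paneth class, while mt-Cytb, the mitochondrial subunit of complex III, took 25.1% of them in the stem class of both libraries and 31.3% and 31.8% in the Paneth class. In the enterocyte class both shares stayed near those of the stem class, at 20.4% and 20.9% for mt-Co1 and 24.4% and 23.9% for mt-Cytb. The share of mt-Nd5 was also lower in the Paneth class, at 4.32% and 4.27% against 6.77% and 6.88% in the stem class.

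Of 11 mitochondrial members measured in the enterocyte to stem comparison, 1 passed, mt-Co3, on 34 and 15 UMIs in the stem class. The rows with many counts had ratios in a narrow band. It ran from 1.22 for mt-Nd2 to 1.42 for mt-Nd6 in library 1, and from 1.08 for mt-Cytb and mt-Nd4 to 1.22 for mt-Nd6 in library 2. All 11 were above 1 in both libraries.

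The mitochondrial rows fell into 2 sets by count. The rows mt-Nd1, mt-Nd2, mt-Co1, mt-Nd4, mt-Nd5, mt-Nd6 and mt-Cytb held between 368 UMIs per base of transcript (mt-Nd5) and 2083 (mt-Cytb) in the kept cells. The rows mt-Co2, mt-Atp8, mt-Atp6, mt-Co3, mt-Nd3 and mt-Nd4l held between 1.08 (mt-Co3) and 29.8 (mt-Nd3). In total mt-Co2, a core subunit of complex IV, had 2809 UMIs, whereas mt-Co1 had 1920192. The 6 low rows are neighbours: on the mitochondrial genome of the annotation (GENCODE M21, mm10) they run without interruption from position 7013, where mt-Co2 begins, to 10173, where mt-Nd4l ends.

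Nuclear copies of the same stretch are annotated on chromosome 1 of that build, as unprocessed pseudogenes on the minus strand between 24611535 and 24616197. Gm28661 there shares 99.5% of the 60-base windows of mt-Co2, Gm10925 99.5% of mt-Atp6, Gm28437 99.9% of mt-Co3, Gm28438 97.9% of mt-Nd3 and Gm10222 98.7% of mt-Nd4l. At either end of this run, Gm29216 shares 28.3% of the windows of mt-Co1 and Gm28439 61.9% of those of mt-Nd4, both of which are rows with many counts. Over the last 500 bases alone, 95.2% of the windows of mt-Co1 and 0% of those of mt-Nd4 are shared, so a row with 1920192 UMIs is almost wholly shared at that end. The row mt-Atp8 shares 0% with any annotated transcript and had 243 UMIs. The search covered annotated transcripts only. It could miss a copy of mt-Atp8 between Gm10925, which ends at 24614651, and Gm28661, which begins at 24614885. None of these pseudogenes is a row of the matrix. The treatment of reads that match several places (not given in the sources used here) was not tested for its part in the low counts. Sums of the mitochondrial members are in effect sums over the 7 rows with many counts, and ratios for mt-Atp8, mt-Co3 and mt-Nd4l rest on few UMIs.

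**Figure D4:**
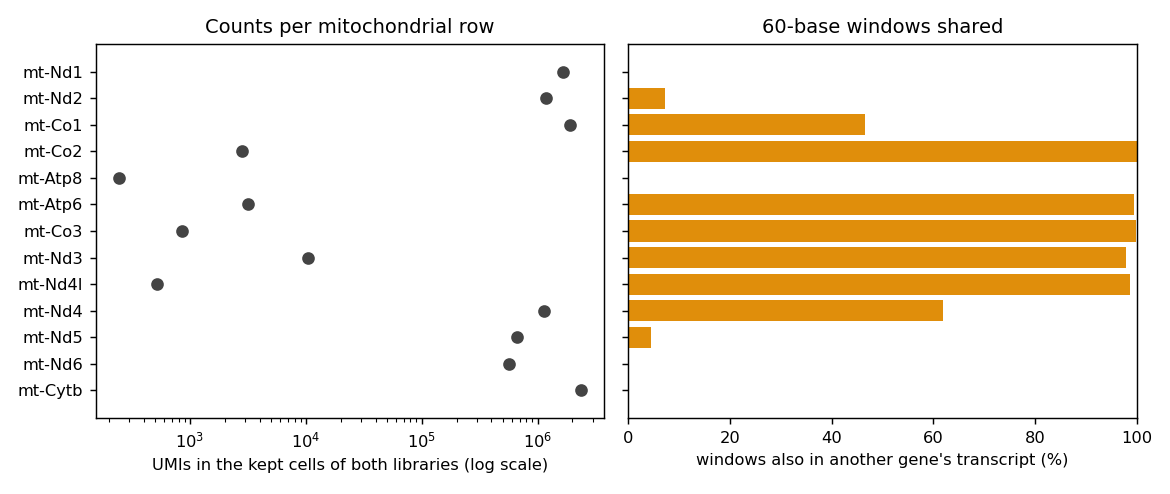
Left, UMIs of each mitochondrial row in the kept cells of both libraries (log scale), in genome order; right, percent of the 60-base windows of its transcript that also occur in the transcript of another annotated gene. The low rows mt-Co2, mt-Atp6, mt-Co3, mt-Nd3 and mt-Nd4l share 97.9% or more, and mt-Atp8, also low, shares 0%. Sequence outside annotated transcripts was not searched.

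Among nuclear members, 6 rows shared over 50% of the windows in the last 500 bases of their transcript with another gene on either strand, and their counts are uncertain: Ndufs3, Uqcrc2, Atp5l, Atp5h and both rows of Atp5o, of which Atp5o is among the 38 members higher in the enterocyte class. Uqcrc2, a core protein of complex III, shared 100% of them with Pdzd9, a row of the matrix that overlaps it on the opposite strand. Its ratio in the Paneth class, 0.158 and 0.0998, was the lowest of the nuclear members there, and the part of the shared sequence in it was not tested. For 66 nuclear members no window of those last 500 bases was shared. Some of them share windows elsewhere in the transcript, such as Ndufb4, with 36.3% of all its windows.

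The limit of 25% mitochondrial UMIs is a limit on the 13 mitochondrial members themselves, the only rows of that genome in the matrix, and it did not fall evenly. Among cells with at least 500 genes it removed 15.4% and 32% of the stem class, 43.4% and 48.2% of the enterocyte class, 5.07% and 8.12% of the goblet class, and 0% and 0.602% of the Paneth class. The mitochondrial levels given above are therefore levels of cells under a ceiling. Per 1000000 UMIs outside mitochondrial genes, the nuclear members of the enterocyte class stood at 56319 and 55270 in cells with 10 to 15% mitochondrial UMIs and at 45818 and 44779 in those with 25 to 50%. Malat1, an RNA that stays in the nucleus, stood at 511 and 582 in the first range and 4988 and 4691 in the second, with median UMIs of 14530 and 16115 against 4157 and 4491.

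Between the libraries, 0 of 91 nuclear and 0 of 10 mitochondrial members measured in the stem class differed by 1.5-fold with an interval that left out 1, where 2.95% of all 7900 genes measured did. The median ratio of library 2 to library 1 was 1.01 for nuclear and for mitochondrial members, and 1.0 for all genes. In the stem class mt-Co1 stood at 21657 CPM in library 1 and 21663 CPM in library 2, a ratio of 1.0 (0.99 to 1.01), and mt-Cytb at 26076 and 26194 CPM, a ratio of 1.01 (0.996 to 1.01). The widest nuclear differences were Ndufb6, at 44.4 and 61.6 CPM (1.39, 1.13 to 1.71), and Ndufa11, at 23.5 and 32.5 CPM (1.38, 1.04 to 1.84), on the high side, and Sdhaf3, at 22.8 and 17.5 CPM (0.769, 0.542 to 1.08), on the low side. With 1 pooled library each, a difference between animals, between groups and between library preparations cannot be told apart, and none of these values is a test.

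No member passed in the cycling stem, cycling, enterocyte, goblet or Paneth class either, where 2.96%, 3.51%, 4.83%, 4.79% and 12.4% of all genes did. In the goblet class the members leaned to one side: 87 of 90 nuclear members were lower in library 2, with a median ratio of 0.861, and 10 of 10 mitochondrial members, with a median of 0.809, while the median of all genes was 1.01. The same cells had higher goblet marker levels in library 2, 59388 against 47169 CPM summed over 7 markers, and 280 against 126 cells with at most 5% mitochondrial UMIs. The part of either in the ratio was not tested. Per 1000000 UMIs outside mitochondrial genes, the nuclear members of goblet cells with at most 5% mitochondrial UMIs stood at 23257 in library 1 and 23826 in library 2, with no lean to library 1. In goblet cells with 5 to 10% they stood at 37173 and 32434, and in those with 10 to 15% at 40625 and 35907.

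In the enteroendocrine class, 10 of 66 measured nuclear members and mt-Co1 were lower in library 2 and 0 higher, where 7.06% of genes were lower and 8.91% higher. The nuclear median was 0.767. Cox6a1 stood at 987 and 626 CPM (0.634, 0.560 to 0.718) and Cox7b at 439 and 264 CPM (0.601, 0.496 to 0.727). Only 69 and 85 cells stood behind these values, and enteroendocrine markers as a median share were 353 and 767 UMIs per 10000, so the cells of the 2 libraries differed in makeup or marker load as well. In the lymphocyte class Ndufa9 was higher (1.58) and Atp5d lower (0.608) of 67 nuclear members, where 12.2% of genes passed. Below the 1.5-fold rule, most measured mitochondrial members were lower in library 2 in every class given here but the stem class. In the Paneth class, the median of all genes was lower still. All 12 measured were below 1 in the enterocyte class (median 0.892, against 0.983 for nuclear members and 1.03 for all genes) and all 12 in the cycling class (0.939, against 0.985 and 1.02). All 7 were below 1 in the lymphocyte class (0.856, against 1.01 for all genes) and all 7 in the enteroendocrine class (0.687, against 1.04). In the cycling stem class 9 of 10 were below 1 (0.947, against 0.996 for all genes). In the Paneth class 7 of 8 were below 1, but their median of 0.966 stood above the 0.929 of all genes. In the stem class 3 of 10 were below 1. The tuft class was not compared by member, and its mitochondrial sum was higher in library 2, at 78480 and 97639 CPM in libraries 1 and 2. The limit on mitochondrial UMIs caps these same members and fell unevenly on the libraries. It removed 32.65% and 49.55% of the cycling class in libraries 1 and 2, and 21.04% and 37.33% of the cycling stem class. In the stem class, which showed no such lean, it removed 15.4% and 32%. It removed less from library 2 in the enteroendocrine class, at 8% and 5.556%, and the lymphocyte class, at 1.748% and 0.8475%. The part of the limit in the lean was not tested.

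**Figure D5:**
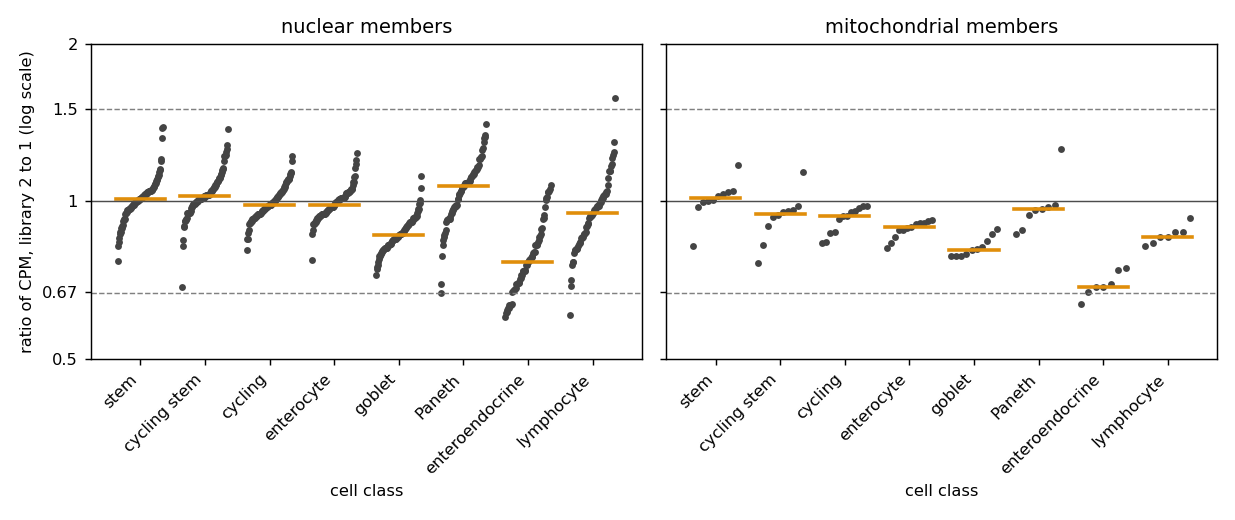
Ratio of CPM in library 2 to library 1 (log scale) for each measured nuclear (left) and mitochondrial (right) member, by cell class, with bars at the median and dashed lines at 1.5 and its inverse. Stem class members centre on 1.01, goblet and enteroendocrine members lie mostly below 1, with nuclear medians of 0.861 and 0.767.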

How the data were processed

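Single cells of duodenal crypts were counted in 2 samples, NT and ES, 1 pooled library each. The authors deposited UMI counts per gene and barcode, raw per the file headers, as 1 matrix for both. The submitters' processing notes name Cell Ranger 2.1.1 and mm10. The rule for calling cells (not given in the sources used here) and the 27-letter barcodes leave the capture chemistry unsettled.

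The counts were used as deposited, with Python 3.11.15, numpy 2.4.6, scipy 1.17.1, pandas 2.3.3 and matplotlib 3.10.9. Kept cells had 500 genes or more and no more than 25% mitochondrial UMIs, with medians of 10854 and 11800 UMIs. Cells with at least 3 marker UMIs and a share per 10000 UMIs outside mitochondrial genes at or over a limit entered a class: stem 6, cycling 20, enterocyte 60, goblet 100, Paneth 1500, enteroendocrine 50, tuft 25 and lymphocyte 45. Limits were set after viewing marker shares. Cells past several differentiated limits were left out in place of a doublet caller, which was not run.

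Counts were summed per class and library, divided by the total and multiplied by 1000000 (CPM). Levels carry exact Poisson and ratios exact conditional 95% intervals. Both cover counting error only. No test was possible with 1 library per group. Over a pair of libraries, the minimum was 100 UMIs in all. The ratio code was tested on simulated counts. Of 31253 features, 99.5% were found in GENCODE M21, which gave coordinates and transcripts, and all 111 members were. Promoters came from RefSeq (GRCm38.p6). Named genes were the mitochondrial rows, isoform families, complex II subunits, preset subunits of each complex, members past the rule or with the widest ratios, and the extremes of each list. A few others were named after their values were seen. Members, lists and markers were chosen with earlier results of these data known. Alternatives covered the cell filters, the class limits, the denominator, depth and the rule itself.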

Additional observations from a re-analysis of the deposited data

How the results depend on the processing

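Across 13 alternatives, 10 planned and 3 chosen after seeing the data (the denominator outside markers and defensins, cells of 8000 to 16000 UMIs, and cells near a class limit left out), 2552 of 2570 enterocyte to stem ratios of single members stayed on their side of 1. Asking for a ratio of 2 or dropping the minimum count leaves each ratio unchanged, so those alternatives could not move a side. Either other denominator scales all members of a library by the same factor. The cause of each move below was not tested. No paired analysis was possible because each group is 1 library without a replicate number.

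The enterocyte to stem ratio of the nuclear sum was 1.48 and 1.46 in libraries 1 and 2 without the mitochondrial limit, 1.62 and 1.56 with a limit of 15%, 1.65 and 1.56 per 1000000 UMIs outside mitochondrial genes, 1.67 and 1.58 outside markers and defensins too, 1.58 and 1.52 with class limits divided by 1.5, 1.70 and 1.58 in cells of 8000 to 16000 UMIs, and 1.64 and 1.56 without cells near a limit. In library 1 it was 1.61 with cells weighted equally, 1.61 after thinning to 2000 UMIs and 1.67 with class limits multiplied by 1.5. For the mitochondrial sum these were 1.57 and 1.30, 1.17 and 1.06, 1.30 and 1.15, 1.32 and 1.16, 1.24 (library 1, limits divided by 1.5), 1.35 and 1.28, and 1.30 and 1.17, then 1.27 and 1.16 weighted equally, 1.28 and 1.17 thinned, and 1.28 and 1.18 with limits multiplied by 1.5.

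Nuclear members higher in the enterocyte class numbered 6 when a ratio of 2 was asked for, against 38. Lower ones, 1 as reported, numbered 3 without the mitochondrial limit and with limits multiplied by 1.5, 2 with no minimum count and without cells near a limit, and 0 in the other settings that moved the count. Mitochondrial ones, 1 as reported, numbered 3 without the limit, 2 under either other denominator and with cells weighted equally, and 0 at 15%, thinned, with limits multiplied by 1.5 and at a ratio of 2. Between libraries in the stem class, 0 nuclear members became 1 at 15% and 2 with limits multiplied by 1.5.

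Without the mitochondrial limit, the mitochondrial ratio of library 1 thus exceeded the nuclear one, which reverses their order. Directions turned for the Paneth to stem ratio of the nuclear sum, 1.01 and 1.12 outside mitochondrial genes, markers and defensins, and for the lymphocyte to stem ratio in library 1, 1.13 among cells of 8000 to 16000 UMIs, a range well above the median of 2444 UMIs in that class. The median log2 enterocyte to stem ratio of all genes, -0.29 and -0.25 over 8425 genes, was 0.07 and 0.08 over the 2811 genes with enough UMIs after thinning and -0.48 and -0.43 over 12476 genes with no minimum count. Low counts limit the 6 low mitochondrial rows, the alternative isoforms, and the tuft and enteroendocrine classes.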
